A study of Mus musculus with 4 samples.

Results

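The S100a2 to S100a6 cluster is a short stretch of the mouse epidermal differentiation complex on chromosome 3 that holds the genes S100a2, S100a3, S100a4, S100a5 and S100a6 and the putative enhancers E4, E5, E6 and E7 of the study's enhancer table. Its members here are the contacts measured by 5C in which at least 1 of the 2 fragments has its midpoint above 90.365 and up to 90.43 Mb (mm9). This window takes in 14 of the 712 fragments that the 4 libraries list. The keratinocyte libraries hold 3549 and 1775 such contacts among 95692 and 67210 in all, and the thymocyte libraries 1318 and 1826 among 45861 and 53420. Every library lists 557 of the cluster's contacts, among 23395 for the whole locus.

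S100 proteins are small calcium-binding proteins with EF-hand motifs that mostly work as dimers and change shape when they bind calcium. Many of their genes lie side by side in the epidermal differentiation complex, together with the genes for loricrin, involucrin and the small proline-rich and late cornified envelope proteins, from which keratinocytes build the outer layer of the skin. S100A6 (calcyclin) and S100A4 are made in many dividing and motile cells, S100A3 is best known from the hair cuticle, and S100A2 from epithelial cells. Contacts between fragments of such a locus are measured because enhancers can act on promoters that lie far away along the DNA but close in the folded chromosome.

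In the 5C method, chromatin is fixed, cut with the restriction enzyme HindIII and religated, and pairs of a forward and a reverse probe are joined where their fragments were ligated to each other. The keratinocytes came from the epidermis of newborn C57BL/6 mice and were kept on collagen in a medium low in calcium for 15 hours at 32 °C, and the thymocytes, labelled newborn C57BL/6 too, came as a cell suspension. Both were fixed in 1% formaldehyde for 10 minutes, and each cell type has 2 libraries. The study calls the libraries of a cell type biological replicates, and no source used here says which animals went into each. The deposited 5C tables hold no expression, and the study's expression data were not used here, so the cell types were not checked against marker genes.

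The fragments that carry the member genes can be recognised by the locus-specific part of their probes, 30 bases that end or begin at the cut HindIII site. The probes of the fragments on which the results below turn are given 5′ to 3′, with the bases of the HindIII site in capitals. Forward probes follow the plus strand of mm9 and reverse probes the minus strand, and the coordinates are those of the whole fragment.
FOR_154, chr3:90384827-90385898, between E4 and E5: aggtagtgctgcttcaggaaattaagaAAG
REV_155, chr3:90385899-90398131, S100a2 start and E5: CTTtttcctcaagagcctttgtcttattga
REV_158, chr3:90402605-90407426, S100a3 start and part of E6: CTTtgagaacgggcaacctggacatgaggt
FOR_159, chr3:90407427-90413018, S100a4 and S100a5 starts and part of E6: gaatgtgttttaagttttgcgtcccacAAG
FOR_163, chr3:90420276-90422209, beyond S100a6: agccggatcctttcaggttattgatggAAG
REV_164, chr3:90422210-90424819, beyond S100a6: CTTgagcaactcaaaggcactaatggagtt

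The start of S100a3 (chr3:90404137-90406624, plus strand) lies in REV_158, and the starts of S100a4 (chr3:90407692-90409967) and S100a5 (chr3:90412445-90415702) share FOR_159, so their contacts cannot be told apart. Of 4 RefSeq starts of S100a3 whose promoter sequence was found in mm9, 3 lie in REV_155. S100a2 is placed in REV_155 by the study's annotation of fragments, as the gene annotation used here does not list it. E5 lies wholly in REV_155, E6 spans REV_158 and FOR_159, and E7 lies wholly in FOR_161. E4 falls in a stretch of 14455 bases (chr3:90370372-90384826) in which no probe was designed, so no contact of E4 itself was measured.

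S100a6 (chr3:90416816-90418336) starts in FOR_161 (chr3:90413690-90419692), the fragment with the least even coverage among those with a member gene. It was listed in 275 contacts in keratinocyte library 1, in none in keratinocyte library 2, and in 24 and 36 in the thymocyte libraries. Its neighbour REV_162 (chr3:90419693-90420275) was listed in no keratinocyte library, and in 31 and 43 contacts in thymocytes. The FOR_161 probe matched mm9 over 25 bases from the HindIII site and differed at the 5 others, as the probe and genome sequences show, with the differing bases in capitals.
FOR_161 probe: GTGGTgcggcaccgtggatgggagccaaag
FOR_161 genome: CACCAgcggcaccgtggatgggagccaaag
Over the whole design, of 24 designed probes that differ from mm9, 18 were listed in all 4 libraries (75%), against 627 of 737 probes without a difference (85.1%). Its part in the missing contacts of S100a6 was not tested.

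**Figure D1:**
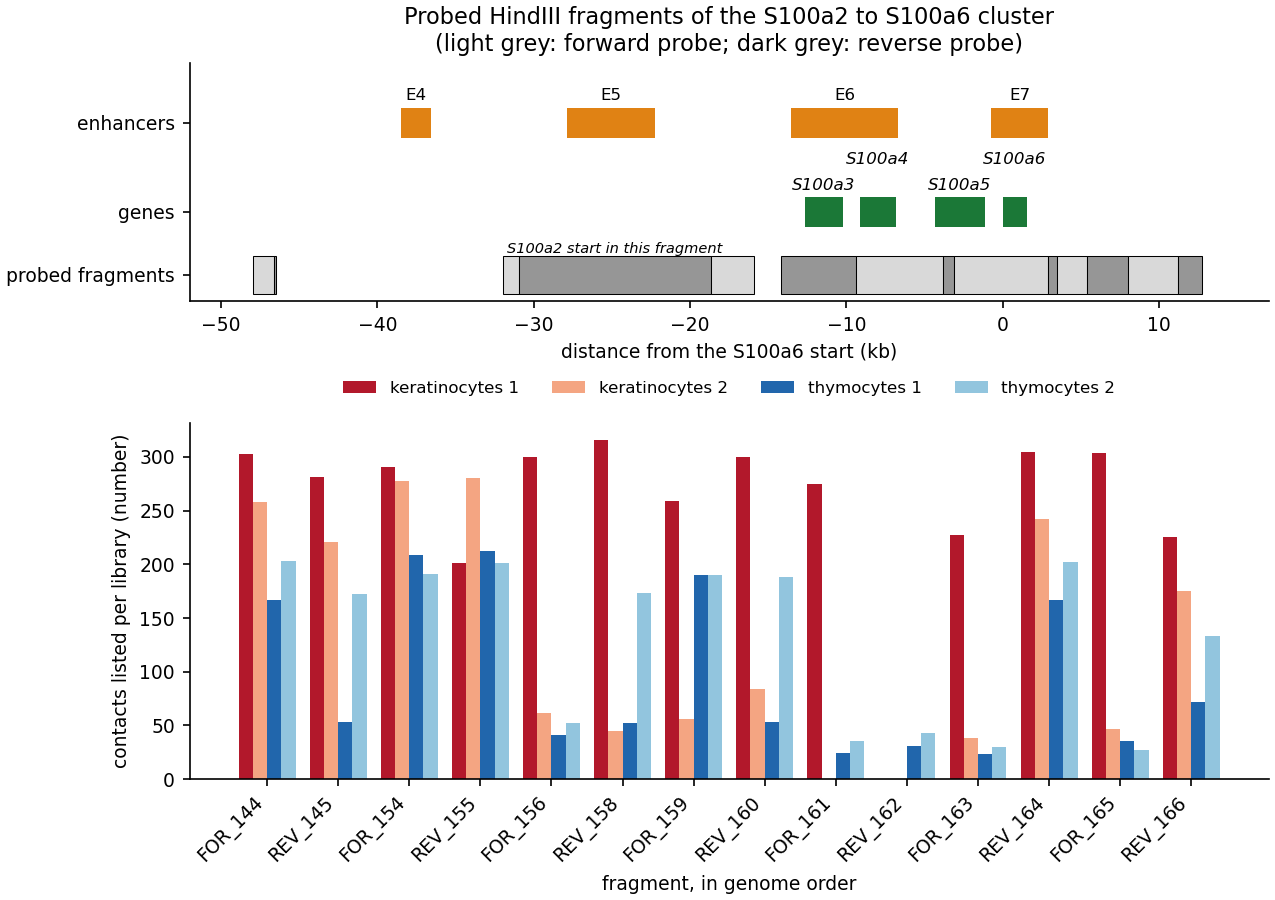
Map of the cluster (top) with the probed fragments, genes and putative enhancers against the distance from the S100a6 start in kb, and the number of contacts each library lists for each fragment (bottom, 1 bar per library). FOR_161 has no bar in keratinocyte library 2, REV_162 has bars in thymocytes only, and E4 lies over no probed fragment.

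Keratinocyte library 1 stood apart from the other libraries. It listed 80.5% of the possible pairs with at least 1 cluster fragment, against 43.4% in keratinocyte library 2 and 27.4% and 38.9% in thymocytes. Over the whole locus the listed shares were 81.6% and 57% in keratinocytes and 38.1% and 46.6% in thymocytes. A Z score is the observed minus the expected 5C frequency at a contact's distance, divided by the standard deviation expected there. In keratinocyte library 1 Z scores had an SD of 1.58 over cluster contacts, against 2.81, 3.29 and 3.34 in the others. Over all listed contacts the SDs were 1.56, 2.32, 2.63 and 2.9, so the library stood apart over the locus as well. Over the 557 contacts listed in every library, Z scores of the keratinocyte libraries had a Pearson's r of 0.41 with each other and those of the thymocyte libraries 0.35. Keratinocyte library 2 and thymocyte library 1 had an r of 0.41 as well, while keratinocyte library 1 had an r of 0.16 and 0.19 with the thymocyte libraries. These are correlations across contacts that share fragments, so they only describe the libraries.

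The share of contacts called differed among libraries and among fragments. A contact was called in a library at a q-value under 0.05. In keratinocyte library 1 this held for 6.57% of the listed cluster contacts, against 16.8%, 17.9% and 19.9% in keratinocyte library 2 and thymocyte libraries 1 and 2. Over all listed contacts of the locus the shares were 5.99%, 11.4%, 11.7% and 14.5%, in the same order of libraries. The low share of keratinocyte library 1 thus held for the locus as well. Among single fragments, shares above 30% were found where fewer than 100 contacts were listed. FOR_144, with 167 to 303 contacts listed per library, had 1.2% to 4.62% of them called, and FOR_163 in the libraries with 23 to 38 contacts had 34.8% to 46.7% called. The part of listing in the calls below was not tested, so the calls are given over listed pairs and over possible pairs.

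**Figure D2:**
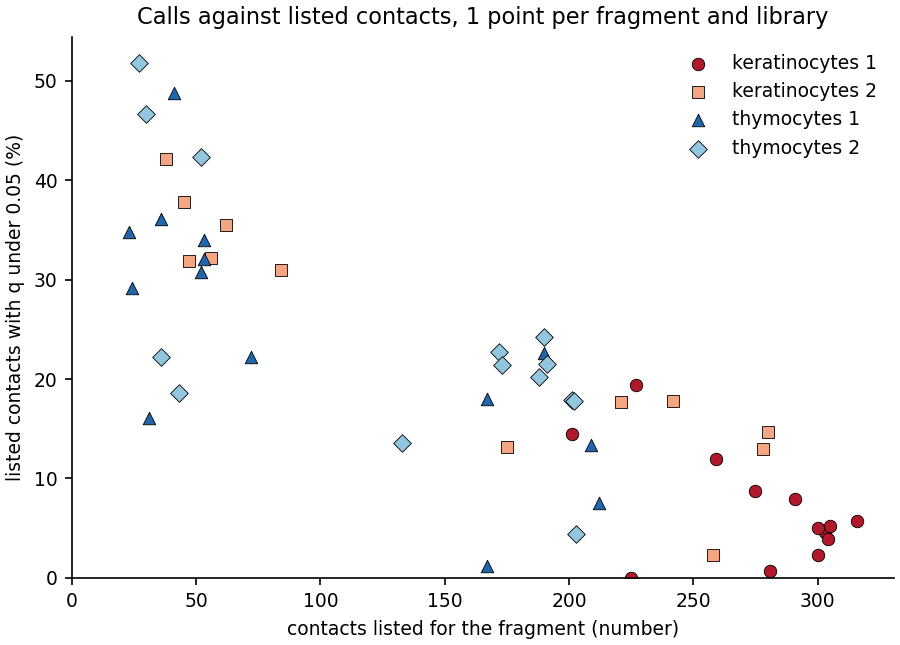
Share of listed contacts with a q-value under 0.05 (%) against the number of contacts listed, with 1 point for each cluster fragment in each library. Points above 30% all have fewer than 100 contacts, and all points of keratinocyte library 1 with contacts lie at over 200 contacts and under 20%.

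Contacts of the cluster were called in both libraries of a cell type more often than contacts of the locus as a whole, in both cell types. In keratinocytes 54 of 1509 contacts listed in both libraries were called (3.58%, against 1.99% for all contacts). In thymocytes it was 65 of 861 (7.55%, against 4.03%). Both libraries listed 38% of the possible cluster pairs in keratinocytes, against 51.3% for the locus, and 18.4% against 27.2% in thymocytes. Taken over possible pairs, the called shares were 1.36% against 1.02% in keratinocytes and 1.39% against 1.09% in thymocytes, which are closer to each other than the shares of listed pairs. On the side of S100a1, S100a13, S100a14 and S100a16 the shares over possible pairs were 1.09% and 1.17%, and on the side of S100a7a, S100a8 and S100a9 1.41% and 1.38%, in keratinocytes and thymocytes.

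Of the 557 contacts that have a value in each of the 4 libraries, 11 were common, that is called in both libraries of both cell types (1.97%, against 0.581% of all contacts). A contact was specific to a cell type where both of its libraries called it and at most 1 library of the other did. By this rule 15 were keratinocyte-specific (2.69%, against 1.45%) and 31 thymocyte-specific (5.57%, against 3.19%). The keratinocyte-specific and thymocyte-specific shares were 2.14% and 2.98% on the side of S100a1 to S100a16. On the side of S100a7a to S100a9 they were 2.35% and 5.34%. Of the 31, 19 were also called in keratinocyte library 2 and 1 in keratinocyte library 1, and 11 in neither. Of the 15, 4 were also called in thymocyte library 1 and 3 in thymocyte library 2, and 8 in neither. The libraries of the cell types did not overlap in Z score at 209 cluster contacts. At 108 of these both keratinocyte libraries were above both thymocyte libraries, a share of 19.4% against 21.1% for the locus, and at 101 both were below, 18.1% against 19.1%. These shares lie near those of the locus. Within TAD1, the cluster's own topologically associating domain, they were farther from those of all contacts. Both keratinocyte libraries were above at 15.1% of the cluster contacts there, against 26% of all contacts within TAD1. At 20.9% both were below, against 14.4%. Contacts that share fragments are not independent, so these shares are a description. Leaving out 1 library rests the call on the other library of that cell type. The counts then run over all contacts that the remaining libraries list, not only the 557, so they are not counts of the same set. Without keratinocyte library 1, 12 contacts were thymocyte-specific, 62 keratinocyte-specific and 33 common. Without keratinocyte library 2 the counts were 41, 71 and 14, without thymocyte library 1 they were 165, 16 and 24, and without thymocyte library 2 they were 102, 15 and 16, in the same order.

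Within the cluster, the fragments on either side of the S100 genes had the highest Z scores in thymocytes. FOR_154 and REV_164 enclose all 5 genes and lie 36 kb apart. Their 5C frequency was 2155 and 2357 in keratinocytes, where 1202 and 777.6 were expected at that distance, and 3649 and 3220 in thymocytes, where 731.7 and 707.9 were expected. The Z scores were 1.78 and 4.46 in keratinocytes and 11.2 and 9.57 in thymocytes, which do not overlap. The contact of FOR_154 with REV_160, a fragment inside S100a5, had Z scores of 0.67 and 2.56 in keratinocytes and 5.31 and 3.26 in thymocytes, which do not overlap either. Both contacts were called in both thymocyte libraries and in keratinocyte library 2.

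The fragment of S100a2 and E5 had a contact of its own with high values in keratinocytes. Its contact with FOR_163, 22 kb away on the far side of S100a6, had a 5C frequency of 6162 and 4100 in keratinocytes with 1554 and 939.9 expected. The Z scores of 6.7 and 7.58 were past the threshold in both keratinocyte libraries, and neither thymocyte library lists this contact, so there is no value to compare. The contact of the S100a2 fragment with that of S100a4 and S100a5 was called in keratinocyte library 1 (Z score 5.04) and thymocyte library 1 (10.6), not in keratinocyte library 2 (1.53), and is not listed in thymocyte library 2.

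Over the 7 contacts within the cluster that all libraries list, the mean Z score was -0.07 and 1.06 in keratinocytes and 1.22 and 1.44 in thymocytes. The libraries do not overlap, and the difference, keratinocytes minus thymocytes, was -0.84 with an SD between replicates of 0.58. Taking the median over the contacts turned its direction (0.48), so 7 contacts do not settle it. With 2 libraries against 2, the smallest p an exact permutation test can give is 0.333, and the means are given without one.

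The common contacts lay mostly toward the neighbouring S100 genes upstream. Of the 11, 7 had their partner in TAD1, the topologically associating domain of the cluster by the study's average keratinocyte borders, and 6 of these lay on the side of S100a1 to S100a16. These 7 are 3.11% of the 225 cluster contacts within TAD1 that all libraries list, against 1.23% for all contacts within TAD1. The fragment REV_132 (chr3:90330428-90332070), which holds the start of S100a14 and overlaps E2, was called with FOR_154 and with the S100a4 and S100a5 fragment. With FOR_154 its Z scores were 4.78 and 10.9 in keratinocytes and 8.06 and 2.81 in thymocytes. With the S100a4 and S100a5 fragment they were 3.66 and 12.5 in keratinocytes and 8.73 and 5.01 in thymocytes. In either contact the libraries of the cell types overlap, and the lower and the higher value of each cell type are far apart.

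FOR_125 (chr3:90316587-90322415), which holds the starts of S100a1 and S100a13, was called in all libraries with the fragments of S100a2 and of S100a3. The Z scores with the S100a2 fragment were 8.27 and 3.86 in keratinocytes and 4.83 and 3.31 in thymocytes. With the S100a3 fragment they were 3.97 and 3.58 in keratinocytes and 5.22 and 15.2 in thymocytes. Both thymocyte libraries were the higher ones in the second contact, while in the first the cell types overlap.

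Downstream, REV_164 was called with FOR_183 (chr3:90490837-90493026), 6.62 kb from the start of S100a9, which encodes a subunit of calprotectin. The 5C frequencies were 2418 and 3496 in keratinocytes (931.6 and 517.9 expected) and 3881 and 2855 in thymocytes (500.7 and 504.4 expected). The Z scores of 3.23 and 13.5 in keratinocytes were below those of 22.9 and 15.7 in thymocytes, and this was the largest difference in mean Z score among the common contacts (-11 ± 3.89, SE, limma, adjusted p = 0.767).

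Common contacts also reached beyond the cluster's own domain. The S100a4 and S100a5 fragment was called with REV_896, 2060 kb away at the start of the late cornified envelope gene Lce1a2, with Z scores of 4.4 and 7.46 in keratinocytes and 3.29 and 16.9 in thymocytes. REV_145, 7.99 kb from E4, was called with FOR_1595, 4411 kb away and 3 kb from the start of Pi4kb, which encodes a phosphatidylinositol 4-kinase. There the Z scores were 9.07 and 14.9 in keratinocytes and 7.6 and 7.72 in thymocytes. The other common contacts were FOR_154 with REV_126, REV_164 with FOR_118 near Chtop, REV_145 with FOR_1435 and REV_164 with FOR_1475, with Z scores from 2.52 to 13.6.

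**Figure D3:**
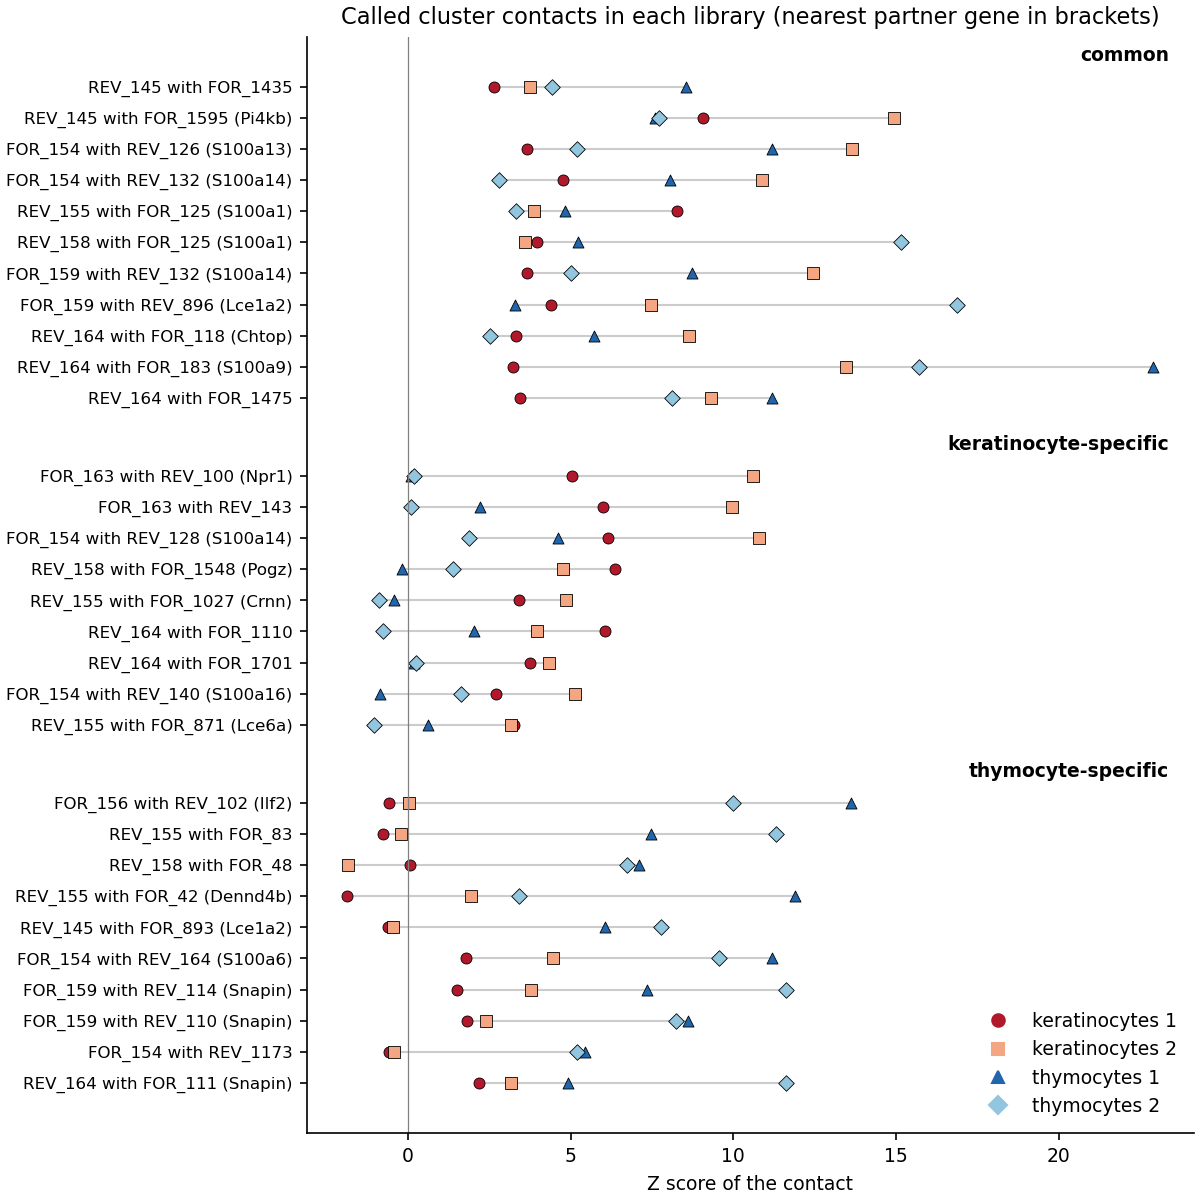
Z score of each common contact (top), and of the keratinocyte-specific (middle) and thymocyte-specific (bottom) contacts with the largest non-overlapping differences, with 1 point per library and the nearest partner gene in brackets. Points of the cell types mix in most of the common contacts, and the specific contacts were chosen because the cell types do not overlap.

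The keratinocyte-specific contacts joined the cluster to several places in and beyond TAD1. Of the 15, 7 lay in TAD1 (3.11% of the cluster contacts there, against 1.59% for all contacts within TAD1). At 9 of the 15 the libraries of the cell types did not overlap in Z score. The rule for specific contacts itself favours such a gap, so this count is no result of its own. The values that follow are those of contacts chosen for their difference and are a description. The highest difference was at FOR_163 with REV_100 (chr3:90266498-90272128), the start of Npr1, a natriuretic peptide receptor. Its Z scores were 5.05 and 10.6 in keratinocytes and 0.08 and 0.2 in thymocytes, with 5C frequencies of 1805 and 1776 against 284.5 and 270.7. The frequencies expected in thymocytes were 276.7 and 250.9, close to those observed.

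FOR_163 had another such contact with REV_143, 51 kb away in the stretch between S100a16 and the cluster (Z scores 6 and 9.97 in keratinocytes, 2.22 and 0.1 in thymocytes). FOR_154 had such contacts with REV_128 near S100a14 (6.15 and 10.8, against 4.6 and 1.89) and with REV_140 near S100a16 (2.72 and 5.14, against -0.85 and 1.64). All of these lie upstream of the cluster. Far downstream, REV_164 had keratinocyte-specific contacts with FOR_1110, 2809 kb away (6.05 and 3.96, against 2.04 and -0.78), and with FOR_1701, 4758 kb away (3.75 and 4.32, against 0.18 and 0.25).

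Among member start fragments, that of S100a2 and E5 had keratinocyte-specific contacts near genes of cornification. With FOR_1027, 5.89 kb from the start of Crnn, which encodes the cornified envelope protein cornulin, the Z scores were 3.42 and 4.87 in keratinocytes and -0.43 and -0.9 in thymocytes. With FOR_871, 9.1 kb from Lce6a, they were 3.27 and 3.16 in keratinocytes and 0.63 and -1.04 in thymocytes. The S100a3 fragment had its highest difference with FOR_1548 near Pogz (6.37 and 4.76, against -0.19 and 1.38), and called FOR_871 in both keratinocyte libraries as well, with a Z score of 3.81 and 3.44. Thymocyte library 2 alone lists that contact in thymocytes, at a Z score of 8.6, so it is not keratinocyte-specific by these values. The contact of the S100a2 fragment with its highest difference was that with FOR_965 near Lce3e, where keratinocyte library 2 alone was high (14.3, with -0.62 in keratinocyte library 1 and -1.6 and -0.13 in thymocytes).

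Fragments around Snapin were partners of called contacts in both cell types. Snapin encodes a SNARE-associated protein that is found in many tissues. Of 31 cluster contacts with a partner within 10 kb of its start that both thymocyte libraries list, 9 were called (29%), against 3.76% of all 1064 contacts of the same partner fragments. Of the 9, 8 were thymocyte-specific. Of the 8, 6 were also called in keratinocyte library 2 and none in keratinocyte library 1. In keratinocytes 3 of 37 were called (8.11%, against 1.33% of 2034), of which 2 were keratinocyte-specific, both called in thymocyte library 2 as well. Together the called contacts involve 7 partner fragments and 5 cluster fragments. The contacts share fragments and lie next to each other, so they are not independent of each other. Of all cluster contacts within TAD1, 12.1% were called in thymocytes and 5.88% in keratinocytes. Snapin was picked after the calls were seen, and fragments near other genes of this stretch had calls too. In thymocytes there were 9 near Chtop and 8 near S100a14, against 9 near Snapin. In keratinocytes there were 7 near Chtop and 7 near S100a14, against 3 near Snapin. Shares of listed contacts are not given for Chtop and S100a14, so these counts alone do not rank the genes.

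The S100a4 and S100a5 fragment had a thymocyte-specific contact with REV_110 (chr3:90292782-90299286), which holds the Snapin start, at Z scores of 8.6 and 8.25 in thymocytes and 1.81 and 2.4 in keratinocytes. With REV_114, 5.78 kb from that start, they were 7.35 and 11.6 in thymocytes and 1.51 and 3.78 in keratinocytes. REV_164 with FOR_111 had 4.91 and 11.6 in thymocytes and 2.17 and 3.17 in keratinocytes. The 5C frequencies were closer than the Z scores. At REV_114 they were 1184 and 1181 in keratinocytes and 1301 and 1767 in thymocytes, and the expected frequencies were 686.8 and 450.5 against 343.5 and 331.8.

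The largest difference among thymocyte-specific contacts was at FOR_156, between E5 and E6, with REV_102 (chr3:90272680-90286410) at the start of Ilf2, which encodes a subunit of an RNA-binding complex. Its Z scores were 13.6 and 10 in thymocytes and -0.59 and 0.02 in keratinocytes. FOR_156 had few contacts listed in thymocytes, 41 and 52, of which 48.8% and 42.3% were called. All 4 libraries list only 3 of its contacts. The S100a2 fragment followed with FOR_83 (7.49 and 11.3 in thymocytes, -0.75 and -0.2 in keratinocytes), 166 kb away, with no gene start within 10 kb. Its contact with FOR_42 near Dennd4b had 11.9 and 3.42 in thymocytes and -1.86 and 1.94 in keratinocytes. The S100a3 fragment had its lowest difference with FOR_48 (7.1 and 6.75, against 0.05 and -1.84), 288 kb away.

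In all, 22 of the 31 thymocyte-specific contacts lay in TAD1 (9.78% of the cluster contacts there, against 6.94% for all contacts within TAD1). At 24 of the 31 the cell types did not overlap in Z score, which the rule for specific contacts favours here too. Beyond TAD1, REV_145 had a thymocyte-specific contact with FOR_893 near Lce1a2 (6.06 and 7.79 in thymocytes, -0.63 and -0.45 in keratinocytes), and FOR_154 with REV_1173 (5.44 and 5.19, against -0.57 and -0.44).

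By group of partner genes, contacts with the neighbouring S100 genes (S100a1, S100a13, S100a14, S100a16, S100a7a, S100a8 and S100a9) had the highest mean Z scores among the gene lists in 3 of the 4 libraries. These were 1.65 and 2.51 in keratinocytes and 2.11 and 1.61 in thymocytes, over 50 contacts, against 0.52 and 0.97 and 1.14 and 0.85 over all 557. In thymocyte library 2 the broadly expressed genes of TAD1 were higher, at 1.68. Calls in both libraries numbered 11 of 75 in keratinocytes (14.7%) and 15 of 66 in thymocytes (22.7%) for the neighbouring S100 genes. For the broadly expressed genes of TAD1 (a list from Rps27 to Chtop) they were 14 of 151 (9.27%) and 21 of 121 (17.4%). For all cluster contacts within TAD1 the shares were 5.88% and 12.1%, and for all contacts within TAD1 2.64% and 7.68%.

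With the cornified envelope genes (Lor, Ivl, the Sprr and Lce genes, Lelp1, Crct1 and Prr9) the mean Z score over 77 contacts was 0.48 and 0.94 in keratinocytes and 1.29 and 0.3 in thymocytes. The difference of -0.08 was smaller than the SD between replicates, 0.55. Calls numbered 10 of 230 in keratinocytes (4.35%, against 3.58% for the whole cluster) and 8 of 123 in thymocytes (6.5%, against 7.55%). The keratinocyte calls were made with fragments near Ivl, Crct1 and genes of the Lce1 group and Lce6a, and the thymocyte calls with fragments near Lor, Sprr2i and, again, genes of the Lce1 group and Lce6a. The contact near Ivl is listed in no thymocyte library, and those near Lor and Sprr2i in no keratinocyte library, so these have no value to compare. Near S100a10 and S100a11 there was 1 call in each cell type, of 46 contacts in keratinocytes (S100a11) and of 23 in thymocytes (S100a10). These are shares of 2.17% and 4.35%, against 1.99% and 4.03% for all contacts of the locus. Each of these contacts was also called in the single library of the other cell type that lists it. The Z score there was 3.41 in thymocyte library 2 and 5.05 in keratinocyte library 2. Near the genes of fused-type S100 proteins, such as filaggrin, keratinocytes had 1 call of 79 contacts, at Crnn (1.27%, against 1.99% for the locus). Thymocytes had 0 of 37, against 4.03% for the locus.

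The fused-type S100 genes were the gene list in which the libraries of the cell types did not overlap. Their mean Z scores over 29 contacts were 0.42 and 0.58 in keratinocytes and 0.26 and -0.12 in thymocytes. The difference, 0.43, is that of 1 among 5 gene lists, and it was given no test. On other scales the libraries overlap, with medians of 0.14 and -0.11 in keratinocytes and -0.03 and -0.64 in thymocytes, and a mean log2 observed over expected frequency of -0.22 and -0.07 against -0.05 and -0.36.

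On the side of S100a1 to S100a16, next to the cluster, contacts had higher mean Z scores in keratinocytes. These were 2.31 and 3.08 in keratinocytes and 1.83 and 1.79 in thymocytes over 49 contacts, which do not overlap, a difference of 0.89. On the side of S100a7a to S100a9 they were 0.25 and 0.80 in keratinocytes and 1.40 and 0.78 in thymocytes over 36 contacts, which overlap.

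**Figure D4:**
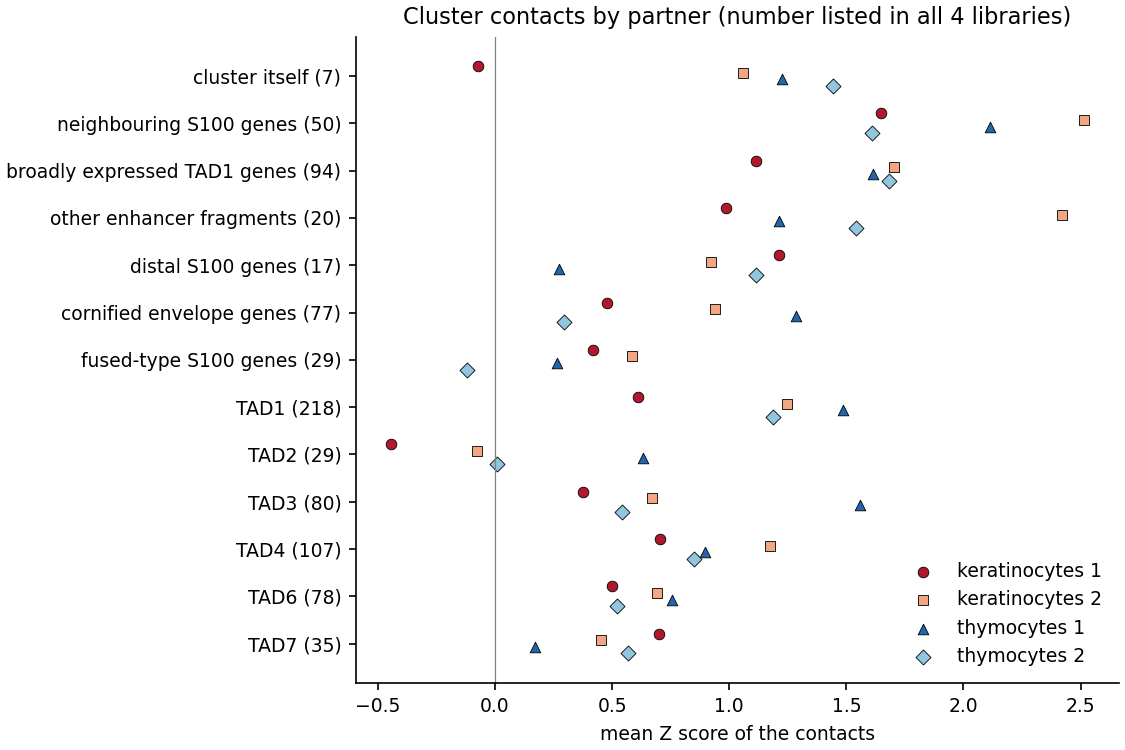
Mean Z score of cluster contacts listed in all 4 libraries, by partner, with 1 point per library and the number of contacts in brackets. Points of the cell types mix in most rows. In the contacts within the cluster and those with TAD2 both thymocyte points lie above both keratinocyte points, and with the fused-type S100 genes both keratinocyte points lie above.

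Contacts with TAD2, the next domain downstream, had mean Z scores that were lower in keratinocytes. The mean Z score over 29 contacts was -0.45 and -0.08 in keratinocytes and 0.63 and 0.01 in thymocytes, a difference of -0.58 with an SD between replicates of 0.36. None of 125 contacts with TAD2 that both keratinocyte libraries list was called, against 1.99% of all contacts. In thymocytes 2 of 67 were called (2.99%, against 4.03%), REV_160 with a fragment near Pglyrp3 and REV_166 with a fragment near Lor. Neither is listed in a keratinocyte library. On the scale of log2 observed over expected frequency the difference was -0.57, and that of the median Z score was -0.11. The medians were -0.59 and -0.11 in keratinocytes and -0.02 and -0.47 in thymocytes, which overlap.

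Along the locus, the cluster's Z scores were highest in the 200 kb upstream of S100a6 in each library, among bins of 200 kb with at least 9 contacts and over contacts that all libraries list. The mean there was 1.77 and 2.73 in keratinocytes and 2.21 and 2.12 in thymocytes, over 79 contacts. In the 200 kb downstream it was 0 and 0.58 in keratinocytes and 1.08 and 0.46 in thymocytes, over 49 contacts. In thymocyte library 1, the bin centred 2100 kb downstream had a mean of 2.19, against 0.1, 0.95 and 0.68 in the others. Over all contacts that a library lists, the order of the bins differed in thymocytes. There thymocyte library 1 had 1.83 upstream and 1.95 in the bin centred 1900 kb downstream, and thymocyte library 2 had 1.31 upstream and 2.11 in the bin centred 2300 kb downstream.

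**Figure D5:**
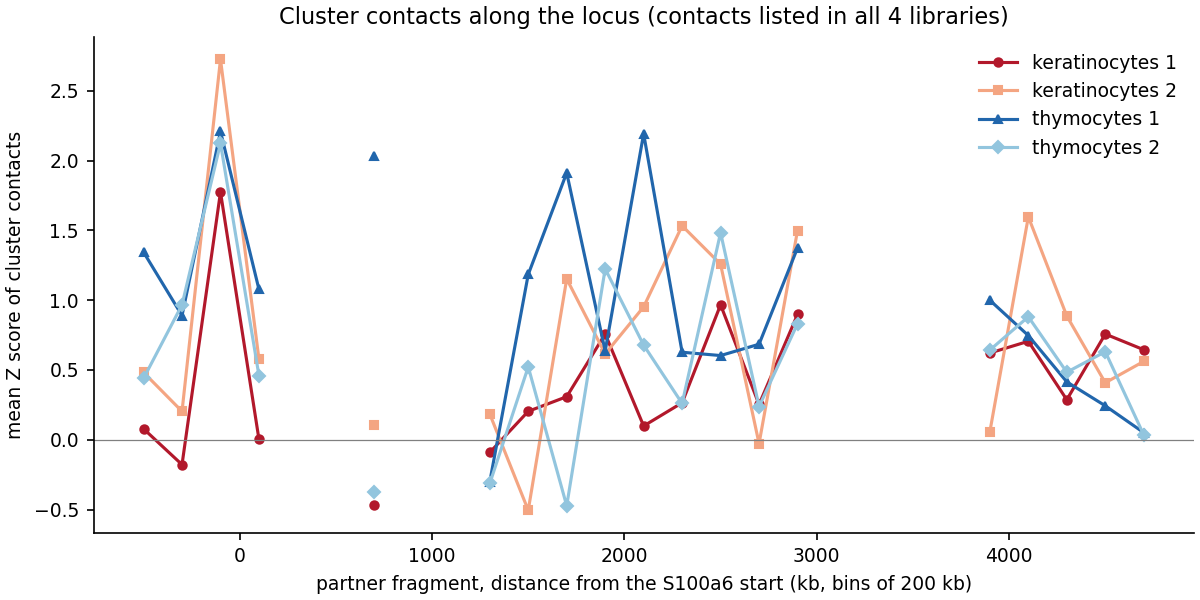
Mean Z score of cluster contacts listed in all 4 libraries against the distance of the partner fragment from the S100a6 start (kb, bins of 200 kb with at least 9 contacts), with 1 line per library. All lines peak in the bin just upstream, and farther downstream the order of the libraries changes from bin to bin.

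The S100a4 and S100a5 fragment had mean Z scores of 1.17 and 2.09 in keratinocytes and 4.41 and 4.22 in thymocytes over 20 contacts listed in all libraries, which do not overlap. Of its contacts, 14 of 129 were called in both thymocyte libraries, where the share over all contacts was 4.03%. In keratinocytes 4 of 46 were called, where that share was 1.99%. The S100a3 fragment had mean Z scores of 1.48 and 1.47 in keratinocytes and 2.06 and 2.4 in thymocytes over 16 contacts. Over all contacts that each library lists, the cell types overlap for both fragments. The means were then 0.35 and 1.74 in keratinocytes and 0.89 and 1.03 in thymocytes for the S100a4 and S100a5 fragment, and 0.21 and 1.92 against 1.9 and 0.81 for that of S100a3. For the S100a2 fragment, over 96 contacts, the means were 0.51 and 1.04 against 1 and 0.18, which overlap. The lists differ in length between libraries. Keratinocyte library 2 lists 56 contacts of the S100a4 and S100a5 fragment and keratinocyte library 1 lists 259, while the thymocyte libraries list 190 each.

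For S100a6 itself a comparison of cell types rests on keratinocyte library 1 alone. Only 7 contacts of its fragment were listed in that library and both thymocyte libraries, and none was called in all 3. The mean Z scores over these were -0.1 in keratinocyte library 1 and 1.85 and 1.29 in thymocytes. In thymocytes 1 contact was called in both libraries, that with REV_911 near Lce1e, at Z scores of 6.87 and 4.32, with -1.06 in keratinocyte library 1. Of the 275 contacts that keratinocyte library 1 lists, 24 were called. The highest of these was with REV_117 between Snapin and Chtop, at a Z score of 11.1, and it was followed by REV_102 near Ilf2 at 9.67. Neither is listed in a thymocyte library.

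Fitted across all 23395 contacts, no difference between cell types passed the threshold, in the cluster or elsewhere (limma on Z scores, adjusted p under 0.05, 0% of all contacts and 0 of the 557 cluster contacts). At an unadjusted p under 0.05 there were 38 cluster contacts (6.82%, against 5.11% for the locus), 20 higher in keratinocytes and 18 higher in thymocytes. The lowest adjusted p in the cluster was 0.767. The common contact of REV_164 with FOR_183 had an unadjusted p of 0.0299 in that fit, and the contact of the S100a4 and S100a5 fragment with REV_1166, the highest difference of that fragment (4.4 ± 1.33, SE), an unadjusted p of 0.0159. On the scale of log2 corrected frequency, 1 cluster contact passed, FOR_144 with REV_143, which are adjacent fragments. Its frequency was 15162 and 7611 in keratinocytes and 60201 and 74387 in thymocytes, where 8837 and 8459 and 56823 and 70413 were expected. Its Z scores of 1.36 and -0.22 in keratinocytes overlap those of 0.15 and 0.15 in thymocytes.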

How the data were processed

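The deposited tables hold, for each library and listed pair of a forward and a reverse fragment, the distance between the fragments and values that the authors made from 5C reads aligned with Bowtie, as the submitters' processing notes name it, with coordinates in mm9. The authors removed poor probes and corrected each probe for coverage. The signal they deposited is the corrected 5C frequency, beside the expected frequency at the distance and its standard deviation from their Loess curve. Their Z score, deposited as a score per contact, equalled the observed minus the expected frequency over that deviation for every contact. For each contact the authors deposited p-value and q-value columns from a Weibull fit per library. Raw counts were not used here, so the depth is unknown and no interval for counting error was made.

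Fragments belong to the cluster by their midpoint. A call needs q under 0.05 in each library of the cell type, and the calls of cell types were compared over contacts listed in all 4 libraries. A partner gene has its GENCODE vM1 start in or within 10 kb of the fragment, with 13 symbols updated by RefSeq synonyms. Z scores were compared with limma 3.58.1 (lmFit, eBayes with trend), keratinocytes minus thymocytes, with Benjamini-Hochberg adjustment over all contacts. The step was also run on simulated, normally distributed Z scores, which does not show how many differences it would find in the real ones. Named are the contacts called in both cell types, the 10 specific contacts of each cell type with the largest non-overlapping differences (9 in keratinocytes) and the highest and lowest difference of each member's fragment. Other contacts are named for their partner or their place in the cluster after their values were seen. The members, lists and tests were chosen with earlier results of these data known. Alternatives were other q thresholds, q-values recomputed from the deposited p-values by Benjamini-Hochberg, distances of at least 20 kb, fragments by overlap, medians, log2 scales, a replicate block and leaving out each library. Probe sequences are those of the study's probe table, compared with the mm9 genome. A result on another probe's sequence is not reported here.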

Additional observations from a re-analysis of the deposited data

How the results depend on the processing

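The 5 counts of calls kept within 1.5 times of the reported value with a q-value under 0.1, with q-values recomputed by Benjamini-Hochberg, at distances of at least 20 kb, and with fragments chosen by any overlap with the window. At a q-value under 0.01, keratinocyte calls fell to 34 and common calls to 7. Leaving out 1 library leaves the call to the other library of that cell type, and the counts then run over the contacts that the remaining libraries list. The ranges were 54 to 299 for keratinocyte calls and 65 to 363 for thymocyte calls. They were 15 to 71 for keratinocyte-specific, 12 to 165 for thymocyte-specific and 14 to 33 for common calls. The lowest count of thymocyte-specific calls was that without keratinocyte library 1 and the highest that without thymocyte library 1. The mean Z score difference over all cluster contacts was -0.25, and 0.094 as a median. Within the cluster the difference of -0.84 turned to 0.48 as a median, to 0.28 on the log2 scale of observed over expected frequency and to 0.27 with fragments chosen by any overlap, and was -1.59 at distances of at least 20 kb. The cause was not tested. With TAD2 the median was -0.11, and the sign stayed negative under all alternatives run. The mean Z score differences with 1 library left out also run over the contacts that the remaining libraries list. They were -0.36 to -0.06 for all cluster contacts and -1.56 to -0.28 within the cluster. With TAD2 they were -1.26 to -0.44, and with the cornified envelope genes -0.63 to -0.030. In limma, log2 corrected frequency gave 1 called cluster contact (114 over the locus), a scale on which the median difference over the locus was 0.58. The replicate block gave 0, as did the other alternatives, with the lowest adjusted p in the cluster between 0.336 and 0.887. The deviations of same-numbered libraries from the means of their cell types had a correlation of -0.09. No source used here says that the numbers pair the libraries, and this correlation cannot tell whether they do. Partner genes were found for 37 of 54 keratinocyte and 44 of 65 thymocyte calls within 10 kb, for 25 and 35 within 5 kb, and for 14 and 11 inside the fragment. The main comparison of cell types is limited to the 557 cluster contacts that all libraries list, and what depth limits is unknown.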
